A study of Mus musculus with 2 samples.

Results

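Chronic myeloid leukemia (CML) is driven by the BCR-ABL kinase and is maintained by leukemic stem cells, which persist when the kinase is inhibited. The genes followed here are ones that such cells have been described to depend on or to carry on their surface: Alox5, Ctnnb1, Foxo3, Il1rap, Cd93, Pml, Sirt1, Ezh2 and Prmt5. The list was set by name, with earlier results of these data known, and all 9 of its genes were found among the 32285 genes in the files. RNA levels do not measure dependency, so the values below give only where these genes were transcribed and how their levels differed between libraries.

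The 9 genes act at several layers of a stem cell. Alox5 encodes the lipoxygenase that starts leukotriene synthesis from arachidonic acid. Ctnnb1 encodes β-catenin, the signal carrier of the canonical Wnt pathway. Il1rap encodes the shared accessory chain of the IL-1 family receptors, and Cd93 a C-type lectin-like transmembrane receptor of endothelial and early hematopoietic cells. Foxo3 is a transcription factor that AKT keeps out of the nucleus, and Pml encodes the scaffold of PML nuclear bodies. Sirt1 is an NAD-dependent deacetylase, Ezh2 the histone methyltransferase of Polycomb repressive complex PRC2, and Prmt5 an enzyme that symmetrically dimethylates arginines.

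Bone marrow Lin-Sca-1+c-Kit+ (LSK) cells of BCR-ABL mice 8 to 10 weeks old were profiled by 10x Genomics 3′ single cell RNA-seq. All mice were SCLtTA/BCR-ABL on a B6 background, in which tetracycline withdrawal switches on BCR-ABL from the SCL promoter, and cells were taken 2 weeks after induction. One library came from mice with intact miR-142 (miR-142 WT CML, below WT) and the other from mice that also lacked both copies of it (miR-142 KO CML, below KO). With 1 library per group there was no replicate and no test, the number of mice behind a library is not given in the sources used here, and every interval is a 95% interval that covers counting error only.

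Barcodes with at least 8000 unique molecular identifiers (UMIs) and under 10% mitochondrial UMIs were kept as cells. This left 5363 WT and 5458 KO cells with 138183896 and 158438757 UMIs, and 4 barcode sequences occurred in both. The median cell held 19443 UMIs in WT and 24181.5 in KO. Mir142hg, the host transcript of the deleted miRNA, was counted 1260 times in WT and 20 times in KO, or 9.12 and 0.13 CPM (UMIs per 1000000 UMIs of all cells). Of the sorting markers, Kit was at 86.4 CPM in WT against 68.3 CPM in KO, and Ly6a (Sca-1) at 96.8 and 152.9 CPM. Over all cells Cd3e and Ly6g, which mark T cells and neutrophils, had 14 UMIs or fewer in each library, while the granule gene S100a8 was at 14.1 CPM in WT against 106.6 CPM in KO.

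miR-142 gives 2 mature strands, and their sequences are shown because the KO mice lack both, so that a matching site in a member's 3′ UTR is the place where the missing miRNA could have paired. The mature sequences are from RefSeq (GRCm38.p6), lie on the plus strand at chr11:87756903-87756925 and chr11:87756867-87756887, and carry the seed, bases 2 to 8, in capitals.
mmu-miR-142a-3p: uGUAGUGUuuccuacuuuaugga
mmu-miR-142a-5p: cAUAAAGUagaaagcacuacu

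The longest annotated 3′ UTR of each member (GENCODE M21, GRCm38) was searched on the transcript strand for the 7 bases that pair with a seed. The match to the 3p seed, ACACTAC, was in none of the 9 members and in 6.91% of 10203 genes with a 3′ UTR. The match to the 5p seed, ACTTTAT, was in 3 members, Alox5, Ctnnb1 and Il1rap, against 16.3% of those genes. Capitals mark the match in the transcript sequence of each of these 3, shown with the bases around it.
Alox5, chr6:116410372-116410378, minus strand: gggtcaggggtACTTTATtctatttatgc
Ctnnb1, chr9:120960334-120960340, plus strand: tttgaacaaaaACTTTATcggggatacgt
Il1rap, chr16:26716726-26716732, plus strand: cttgagtttctACTTTATtccctgaggtc

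Coordinates are those of the matched bases. They begin at base 341 of 642 in the Alox5 UTR, base 817 of 990 in the Ctnnb1 UTR and base 1658 of 2676 in the Il1rap UTR. Over all genes the median log2 ratio of KO over WT was -0.15 with an ACTTTAT site and -0.10 without one, and for ACACTAC it was -0.08 and -0.11. These are matches of letters and not shown binding sites.

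Levels over all cells are summed UMIs as CPM of the UMIs in cells. Because a 3′ library counts transcript ends, a level was compared between libraries and cell groups for 1 gene at a time. Across 10719 genes with a mean of at least 2 CPM the median log2 ratio of KO over WT was -0.11, so a gene near that value was placed like the average gene. All 9 members reached this floor, and their median log2 ratio was -0.04.

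**Figure D1:**
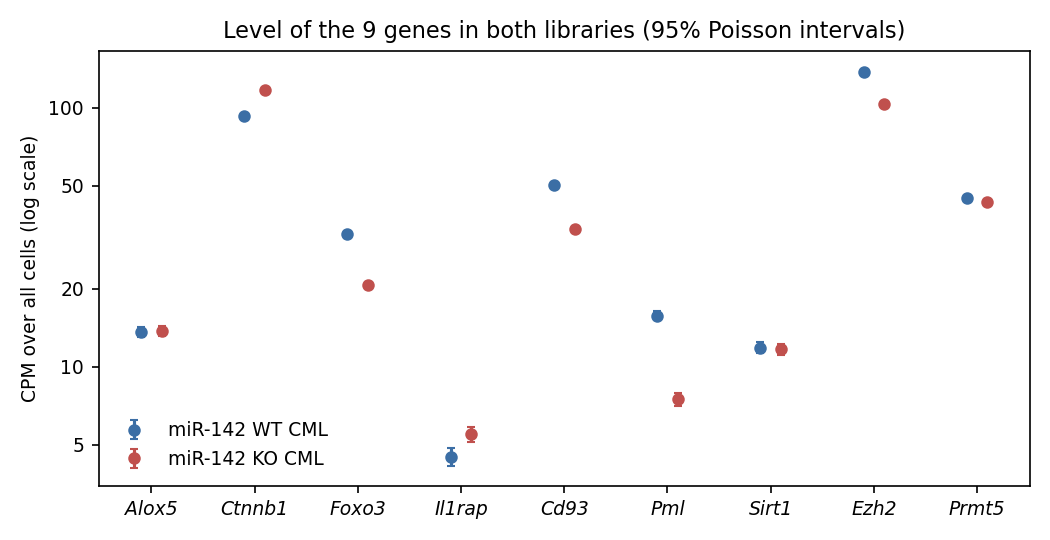
CPM over all cells (log axis) of the 9 genes in the miR-142 WT CML and the miR-142 KO CML library, 1 point per library with 95% Poisson intervals. Pml, Foxo3, Cd93 and Ezh2 sit lower in KO, Ctnnb1 and Il1rap higher, and the points of Alox5, Sirt1 and Prmt5 nearly coincide.

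At a 1.5-fold difference, 0 of the 9 members were higher in KO, where 3.46% of all genes were, and 2 were lower, Foxo3 and Pml, where 9.85% of all genes were. Over all genes 371 passed this fold higher and 1056 lower, so that 74.0% of the calls were lower, and the counts were 512 and 750 (59.4% lower) with the libraries scaled by the median of ratios. By the interval of the ratio, 2 members were higher (26.2% of all genes), 4 were lower (55.4%), and 3 (Alox5, Sirt1 and Prmt5) had an interval that included 0. These 3 had ratios above the median of all genes. Pml had a lower ratio than all but 2.93% of the genes, and Ctnnb1 a higher ratio than 92.2% of them.

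**Figure D2:**
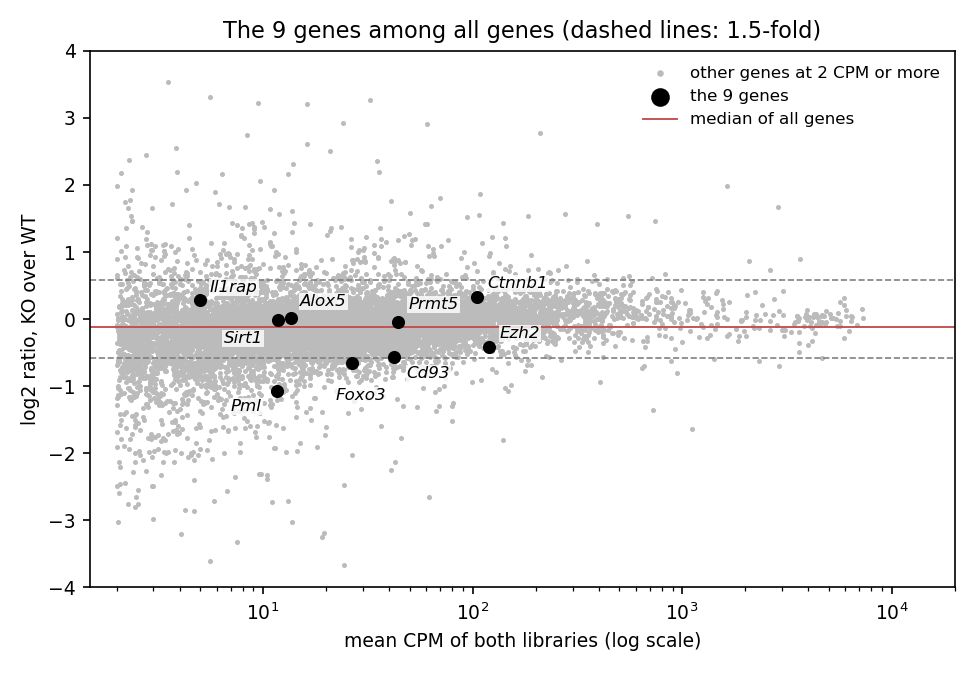
Log2 ratio of KO over WT against the mean CPM of both libraries (log axis) for 10719 genes (grey, 18 lie outside the axes) and the 9 genes (black), with the 1.5-fold limits dashed and the median of all genes as a line. Pml and Foxo3 lie below the lower dashed line and no member lies above the upper one.

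Since the 2 libraries held different cells, the members were also read within groups gated on marker genes. Cells were gated in turn on antibody-secreting, basophil/mast, innate lymphoid, megakaryocyte and erythroid markers, then on granule genes of myeloid progenitors (Elane, Mpo, Prtn3, Ctsg), lymphoid-primed genes and, among non-cycling cells, hematopoietic stem cell (HSC) markers. The rest are called other, and granule and other cells were split by S phase and G2/M phase genes. Pf4 led the megakaryocyte-marker group, Prss34 the basophil/mast-marker group and Dntt the lymphoid-marker group of both libraries, and Pdzk1ip1 was among the 5 leading genes of both HSC-marker groups. These genes are among the gate markers, so they describe the gates.

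The composition of the libraries was far apart. HSC-marker cells numbered 652 in WT (12.2%) and 148 in KO (2.71%), and granule G2/M phase cells were 538 (10.0%) and 1241 (22.7%). Basophil/mast-marker cells were 202 (3.77%) and 287 (5.26%), and innate lymphoid-marker cells 9 and 176. The HSC gate uses genes that themselves differed, since Hlf was at 69.6 CPM in WT against 15.8 CPM in KO and Procr at 7.69 and 1.72 CPM, so the sizes of the groups are not given as a result. A ratio over all cells was therefore also computed with the same mix of groups given to both libraries, below called the equal-mix ratio. It took in every group with cells in both libraries, also small ones such as the 9 innate lymphoid-marker cells of WT. In 9 groups both libraries had at least 50 cells, and ratios are given for these. The order of the groups, and each highest or lowest level of a library named below, is taken over its groups of at least 50 cells, 9 in WT and 11 in KO.

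**Figure D3:**
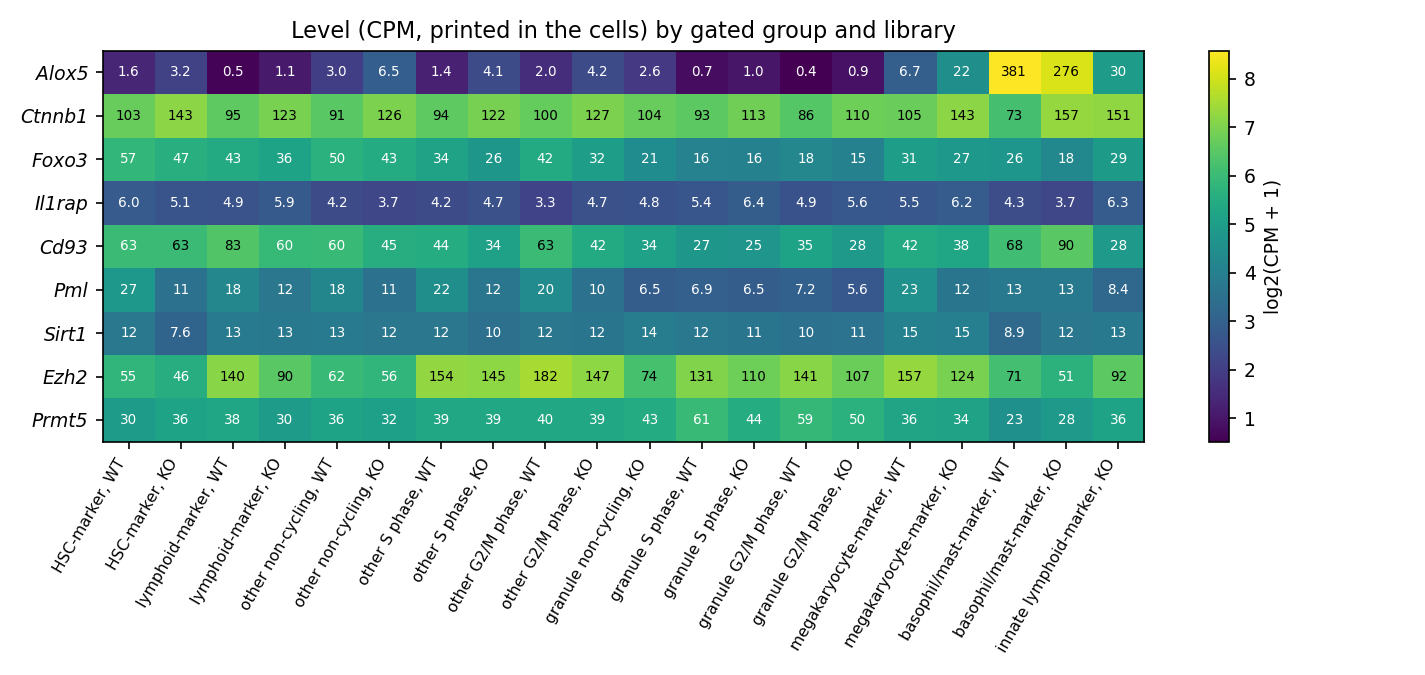
CPM of the 9 genes (rows, value printed in each cell, colour on a log2(CPM + 1) scale) in each gated group and library with at least 50 cells. Alox5 is concentrated in the basophil/mast-marker columns, Foxo3 is highest in the HSC-marker columns, and Ezh2 is lowest in HSC-marker, other non-cycling and basophil/mast-marker cells.

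Within groups few members passed 1.5-fold, and these were mainly Alox5 on the higher and Pml on the lower side. In HSC-marker cells Alox5 passed it higher, from 12 UMIs in WT and 5 in KO (7.99% of genes at the floor there), and Pml and Sirt1 lower (11.2%). Alox5 higher and Pml lower was also the result in other non-cycling cells (4.67% and 6.11% of genes), other S phase cells (3.24% and 7.19%), other G2/M phase cells (2.58% and 6.73%) and megakaryocyte-marker cells (5.53% and 8.85%). In lymphoid-marker cells, where 8 of 9 members were at the floor and Alox5 was under it, no member at the floor was past it higher (6.48%) and Ezh2 was lower (7.57%), and in basophil/mast-marker cells Ctnnb1 was higher (12.0%) and no member lower (7.83%). In granule S phase cells (4.89% higher and 3.57% lower) and granule G2/M phase cells (4.33% and 3.76%) no member at the floor passed it, with 8 of 9 at the floor in each.

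Pml (ENSMUSG00000036986, chr9:58218076-58249786, minus strand) showed the widest difference between libraries. It was at 15.7 CPM in WT (2176 UMIs) and 7.47 CPM in KO (1184 UMIs), a log2 ratio of -1.08 with an interval of -1.18 to -0.97. The difference was also seen in the share of cells with a UMI of Pml, which was 14.2% of WT and 6.34% of KO cells after each cell had been thinned to 8000 UMIs, and 31.4% and 18.9% without thinning.

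Within groups, Pml was lower in KO in 9 of 9, against 10.8% of all genes, and in 7 of them the interval lay below 0, against 5.07% of all genes with at least 7. In HSC-marker cells it was at 27.4 CPM in WT, its highest level in that library, and at 10.8 CPM in KO from 17 UMIs, a log2 ratio of -1.34 with an interval of -2.15 to -0.62. When Hlf and Procr were taken out of the HSC gate, which left 368 WT and 73 KO cells, this ratio was -1.22 with an interval of -2.38 to -0.24. In a gate on still fewer markers, with 285 WT and 59 KO cells, it was -0.99 with an interval of -2.25 to 0.06, so the call in these cells was lost there. In megakaryocyte-marker cells Pml was at 23.3 and 11.6 CPM, and in other G2/M phase cells at 20.3 and 10.4 CPM.

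Granule cells held little Pml in either library. In granule G2/M phase cells it was at 7.17 CPM in WT against 5.61 CPM in KO, a log2 ratio of -0.36 with an interval of -0.60 to -0.11. In granule S phase cells it was at 6.94 CPM in WT against 6.48 CPM in KO, with an interval of the log2 ratio of -0.43 to 0.24. Basophil/mast-marker cells had 12.8 CPM in WT against 12.7 CPM in KO, with an interval of -0.52 to 0.51. In WT the granule S phase level was lower than that of other S phase cells by a log2 ratio of -1.67 (-1.99 to -1.36), and in KO by -0.85 (-1.21 to -0.48). The equal-mix ratio of Pml was -0.77.

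All 16 partners of Pml in nuclear bodies and SUMO conjugation were at the floor. Their median log2 ratio was -0.31, beside -0.11 over all genes, and 12 of the 16 were below 0, as were 65.5% of all genes. Only Rara, the retinoic acid receptor gene to which Pml is fused in promyelocytic leukemia, passed 1.5-fold, with a log2 ratio of -0.71, and its equal-mix ratio of -0.30 did not. Sp100, another nuclear body component, was second with -0.51 and was lower in KO in 9 of 9 groups, while the SUMO genes Sumo2 and Sumo3 were at 0.00 and 0.03.

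Foxo3 (ENSMUSG00000048756, chr10:42181841-42276755, minus strand) was at 32.5 CPM in WT (4487 UMIs) and 20.6 CPM in KO (3263 UMIs). The log2 ratio over all cells was -0.66 with an interval of -0.72 to -0.59. The equal-mix ratio was -0.27, which is under 1.5-fold.

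Foxo3 differed between gated groups in much the same order in both libraries. It was highest in HSC-marker cells, at 57.3 CPM in WT against 47.1 CPM in KO, with other non-cycling cells next at 49.7 and 43.2 CPM. The log2 ratio between these neighbours was 0.21 (0.01 to 0.40) in WT and 0.12 (-0.26 to 0.49) in KO. It was lowest in granule cells, at 15.8 CPM in granule S phase cells of WT and 15.5 CPM in granule G2/M phase cells of KO. HSC-marker cells held 3.19 times the level of granule G2/M phase cells in WT and 3.05 times in KO.

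Between libraries Foxo3 was lower in KO in 9 of 9 groups, as were 10.8% of all genes. The interval lay below 0 in 5 groups, which 12.5% of all genes reached in at least 5. The log2 ratios ran from -0.49 in basophil/mast-marker cells to -0.01 in granule S phase cells. In HSC-marker cells it was -0.28 with an interval of -0.66 to 0.08.

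All 20 genes listed around FOXO signalling were at the floor, with a median log2 ratio of -0.13. The stress gene Sesn3 was at -1.03 and the cyclin G2 gene Ccng2 at -0.85. Sesn3 was lower in 9 of 9 groups and Ccng2 in 6. Sgk1, a kinase related to AKT, was higher with 0.93 and was higher in 6 of 9 groups. With the equal mix these ratios were -0.48 for Sesn3, -0.15 for Ccng2 and 0.53 for Sgk1, all under 1.5-fold. Cdkn1b, which encodes the cell cycle inhibitor p27, was at -0.16 over all cells and yet higher in 9 of 9 groups. Of the 20 genes 6 were above 0 over all cells. Among them were Sod2 (0.41), Cdkn1a (0.29) and Gadd45a (0.28), each higher in 9 of 9 groups, so the list did not move in 1 direction.

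Ctnnb1 (ENSMUSG00000006932, chr9:120929216-120960507, plus strand) was the only member with the interval above 0 in every group compared. It was at 92.8 CPM in WT (12827 UMIs) and 117.2 CPM in KO (18570 UMIs), a log2 ratio of 0.34 with an interval of 0.30 to 0.37. Cells with a UMI made up 53.5% of WT and 59.8% of KO cells after thinning, and 80.9% and 89.4% without it. The share of all genes with the interval above 0 in 9 of 9 groups was 1.81%, and 7.68% were higher in all 9 by any amount.

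The difference was of like size in 8 groups and larger in the remaining one. In those 8 the log2 ratio ran from 0.28 in granule S phase to 0.48 in other non-cycling cells. In HSC-marker cells the level was 103.5 CPM in WT against 142.7 CPM in KO, a ratio of 0.46 with an interval of 0.24 to 0.68. In basophil/mast-marker cells it was 72.7 CPM in WT, the lowest of its 9 groups of at least 50 cells, and 157.0 CPM in KO, the highest of its 11, a ratio of 1.11 with an interval of 0.93 to 1.30. Among those cells the ratio was 0.80 where Mcpt8 and Prss34 led and 1.22 where Cma1 and Tpsb2 led.

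Across groups Ctnnb1 was flat. In WT its highest group stood 1.44 times above the lowest, and 91.7% of all genes had a wider range over the same 9 groups. Of the neighbours in its order of 9 groups in WT, 7 of 8 pairs overlapped in their intervals, and in the 11 groups of KO all 10 did.

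Of the 24 genes listed around Wnt signalling 19 were at the floor. Of these 3 were above 0 over all cells, where 65.5% of all genes lay below it, and the median log2 ratio was -0.21. With the equal mix the middle gene of the 19, Pygo2, was at -0.09, beside a median of -0.06 for all genes. The 2 past 1.5-fold were both lower in KO, Tcf7l2, which encodes a β-catenin partner on DNA, with -1.61 and Bcl9, which encodes a coactivator of β-catenin, with -0.68. With the equal mix Tcf7l2 was at -0.61, still past 1.5-fold, and Bcl9 at -0.41. Tcf7l2 was lower in 9 of 9 groups and was at 29.8 CPM in WT against 19.7 CPM in KO among HSC-marker cells. Apc and Gsk3b of the complex that degrades β-catenin were at -0.04 and -0.20 over all cells. With the equal mix both were above 0, at 0.17 and 0.04, and they were higher in 7 and 6 of 9 groups. Lrp5 and Jup, at -0.12 and -0.37 over all cells, were at 0.01 and 0.23 with the equal mix.

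Alox5 (ENSMUSG00000025701, chr6:116410077-116461178, minus strand) was at 13.6 CPM in WT (1877 UMIs) and 13.7 CPM in KO (2176 UMIs). The log2 ratio was 0.02 with an interval of -0.07 to 0.11. Beneath this equal sum lay opposite differences in separate groups of cells.

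Basophil/mast-marker cells were 3.77% of WT cells and held 89.0% of the Alox5 UMIs, and in KO they were 5.26% of cells and held 77.8%. Their level was 380.7 CPM in WT against 275.6 CPM in KO, a log2 ratio of -0.47 with an interval of -0.56 to -0.37. After thinning a UMI of Alox5 was seen in 77.7% of these cells in WT and 78.7% in KO, against 0.74% and 0.64% of granule G2/M phase cells. Without thinning these shares were 87.6%, 94.1%, 2.42% and 3.30%. Split after the data were seen, the cells led by Mcpt8 and Prss34, basophil proteases, were at 392.4 CPM in WT against 180.6 CPM in KO. The cells led by the mast cell proteases Cma1 and Tpsb2 were at 370.9 and 330.8 CPM.

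In the 8 other groups compared the ratio of Alox5 was above 0, with the interval above 0 in 5, as for 10.1% of all genes in at least 5. One of these 5, granule G2/M phase cells, was at the level of free RNA described below, which leaves 4: megakaryocyte-marker cells and other non-cycling, S phase and G2/M phase cells. The largest ratio was in megakaryocyte-marker cells, at 6.67 CPM in WT (34 UMIs) and 22.3 CPM in KO (90 UMIs), a log2 ratio of 1.74 with an interval of 1.15 to 2.35. A UMI was seen in 3.76% of them in WT and 12.3% in KO after thinning, and in 10.2% and 23.8% without it. Other non-cycling cells were at 3.05 and 6.53 CPM and other S phase cells at 1.39 and 4.12 CPM. In HSC-marker cells it rested on 12 UMIs in WT and 5 in KO, with an interval of -0.87 to 2.59. Innate lymphoid-marker cells of KO held 30.1 CPM, the second highest of the 11 groups of that library, and WT had 9 such cells, too few for a ratio.

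Free RNA can place UMIs of an abundant transcript in cells that do not make it. Barcodes of at most 100 UMIs held Alox5 at 13.8 CPM in WT against 16.5 CPM in KO, above the level of most groups. Per 1000 UMIs of the mast cell and basophil proteases, Alox5 had 8.52 UMIs in the free RNA of WT and 13.0 in that of KO. In WT, lymphoid-marker, granule S phase and granule G2/M phase cells lay at 9.79, 10.4 and 7.31. Their Alox5 could thus not be told apart from background. Protease RNA made by the cells themselves would also lower this ratio, which was not tested. Granule G2/M phase cells of KO lay at 17.2, with an interval of 12.8 to 22.6 that overlapped that of the free RNA, so the higher level there was not read as expression. Granule S phase cells of KO lay at 22.0 (15.6 to 30.2), above the free RNA of KO (11.5 to 14.6). Megakaryocyte-marker cells lay at 121.9 in WT and 1154 in KO, and other non-cycling cells at 36.5 and 149.3. In these groups Alox5 stood above its ratio to the proteases in free RNA. The other 8 members were at 0.50 to 0.87 times their level in cells in the free RNA.

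Leukotriene partners were on the whole higher in KO when summed over all cells. Of 15 genes, 11 were at the floor and 9 of them were above 0, where 65.5% of all genes lay below it. The median log2 ratio was 0.29, beside -0.11 over all genes. Lta4h was at 0.29 over all cells, but at -0.10 with the equal mix and lower in 7 of 9 groups. Ltc4s was at -0.17 over all cells, but at 0.57 with the equal mix and higher in 8 of 9. Cysltr1 and Ltb4r1, receptors for cysteinyl leukotrienes and leukotriene B4, were higher with 2.09 and 1.04, and Mgst2, a glutathione transferase that can form leukotriene C4, with 1.06. Cysltr2 was lower with -0.70. The equal-mix ratios were 0.54, 0.36 and 0.60 for Cysltr1, Ltb4r1 and Mgst2 and -0.43 for Cysltr2, so that of these 4 only Mgst2 was still past 1.5-fold. The activating protein gene Alox5ap was at 0.41 and was higher in 9 of 9 groups. In basophil/mast-marker cells Cysltr1 was counted 3 times in WT and 114 times in KO, or 0.68 CPM against 18.5 CPM. Its level was higher still in the innate lymphoid-marker cells of KO, at 160.4 CPM, a group with 176 cells in KO and 9 in WT. The equal-mix ratio of Cysltr1 includes this group and so rests in part on those 9 cells.

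Il1rap (ENSMUSG00000022514, chr16:26581704-26730117, plus strand) had the fewest UMIs of the 9 genes, at 4.48 CPM in WT (619 UMIs) and 5.48 CPM in KO (868 UMIs). The log2 ratio was 0.29 with an interval of 0.14 to 0.44. After thinning, a UMI was seen in 3.51% of WT and 3.81% of KO cells, and without it in 10.5% and 14.1%. In none of the 9 groups did the interval exclude 0, with 6 groups higher and 3 lower.

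In HSC-marker cells Il1rap was at 6.04 CPM in WT against 5.10 CPM in KO, the latter from 8 UMIs, with an interval of -1.54 to 0.86. That interval holds 1.5-fold differences in both directions, so no smaller difference was detectable at this depth. Its range over groups was narrow, with the highest group 1.80 times the lowest in WT and 1.74 times in KO, and all neighbouring pairs in the order overlapped in both libraries.

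Of 18 genes listed around IL-1 receptors 14 were at the floor, with a median log2 ratio of -0.10. Il1rl1, the IL-33 receptor that pairs with the product of Il1rap, was higher with 0.93, and Il1b, a ligand, was lower with -1.57. The equal-mix ratio was 0.36 for Il1rl1, under 1.5-fold, and -1.56 for Il1b. Both had high levels in basophil/mast-marker cells, where Il1rl1 was at 692.9 CPM in WT against 919.4 CPM in KO and Il1b at 134.4 and 30.9 CPM. Those cells held 590 of the 674 UMIs of Il1b in WT. In megakaryocyte-marker cells Il1b was at 10.2 CPM in WT against 10.9 CPM in KO. By group it was higher in KO in 5 of 9 and lower in 4, so its lower sum was that of basophil/mast-marker cells. The signalling adaptor Myd88 was at 0.04.

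Cd93 (ENSMUSG00000027435, chr2:148436640-148443563, minus strand) was at 50.5 CPM in WT (6972 UMIs) and 34.0 CPM in KO (5380 UMIs). The log2 ratio was -0.57 with an interval of -0.62 to -0.52, and the equal-mix ratio was -0.30. Cells with a UMI were 35.1% of WT and 25.6% of KO cells after thinning, and 63.9% and 55.3% without it.

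HSC-marker cells were nearly equal, with 62.9 CPM in WT against 63.1 CPM in KO. Their interval of -0.32 to 0.32, from 99 UMIs in KO, still holds the equal-mix ratio of -0.30. The interval also included 0 in granule S phase cells (-0.23 to 0.11) and megakaryocyte-marker cells (-0.44 to 0.17). Lymphoid-marker cells, highest in WT at 83.5 CPM, were at 59.7 CPM in KO, a ratio of -0.48 with an interval of -0.68 to -0.29. Other G2/M phase cells were at 63.1 and 42.2 CPM, a ratio of -0.58. In basophil/mast-marker cells Cd93 was higher in KO, at 67.9 CPM in WT against 90.5 CPM in KO, a ratio of 0.41 with an interval of 0.21 to 0.62. Within this group the cells led by Cma1 and Tpsb2 were at 96.2 and 128.6 CPM. The cells led by Mcpt8 and Prss34 were at 34.4 and 24.8 CPM, with an interval of -1.01 to 0.06.

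Of the 9 groups compared, cycling granule cells had the lowest Cd93 in both libraries, at 26.5 CPM in WT against 25.4 CPM in KO in S phase and 35.2 CPM against 28.2 CPM in G2/M phase. Of 9 relatives and binding partners 6 were at the floor. Mmrn1, which encodes multimerin-1, was lower in KO with a log2 ratio of -3.18 (-2.31 with the equal mix) and in 9 of 9 groups. In HSC-marker cells Mmrn1 was counted 147 times in WT and 1 time in KO. Mmrn2, the multimerin-2 gene, was under the floor with 1 UMI in each library. C1qbp was at 0.28, Msn, which links CD93 to the cytoskeleton, at -0.28, and the median of the 6 was 0.03.

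Ezh2 (ENSMUSG00000029687, chr6:47530139-47595341, minus strand) was at 137.3 CPM in WT (18979 UMIs) and 103.3 CPM in KO (16361 UMIs), a log2 ratio of -0.41 with an interval of -0.44 to -0.38. It was lower in KO in 9 of 9 groups, as were 10.8% of all genes. The interval lay below 0 in 6 groups, and 12.5% of all genes had this in at least 5. The ratio was largest in lymphoid-marker cells, at 140.2 and 90.5 CPM, or -0.63 with an interval of -0.79 to -0.48. Lymphoid-marker cells were not split by cell cycle phase, and whether their phases differed between the libraries was not tested. In HSC-marker cells, at 55.4 and 45.9 CPM, the interval was -0.65 to 0.09. It also included 0 in other S phase cells (-0.18 to 0.02) and other non-cycling cells (-0.34 to 0.03).

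Ezh2 went with the cell cycle gates in both libraries. Other G2/M phase cells had 2.95 times the level of other non-cycling cells in WT and 2.64 times in KO, and other S phase cells had 2.48 and 2.62 times. Granule G2/M phase cells lay below other G2/M phase cells, by a log2 ratio of -0.37 in WT and -0.45 in KO. HSC-marker cells, which the gate defines as non-cycling, had the lowest level among the groups of at least 50 cells in each library.

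The list around PRC2 had 12 genes in the files, with the demethylase genes Kdm6a and Kdm6b among them. Over all cells none was past 1.5-fold or above 0, beside 65.5% of all genes below 0. Rbbp4 and Rbbp7, at -0.03 and -0.08, lay above the median of all genes. The median log2 ratio of the list was -0.31, and -0.17 with the equal mix. With the equal mix Rbbp4 and Jarid2 were above 0, at 0.01 and 0.06. The genes of the catalytic core Eed and Suz12 were at -0.30 and -0.18. The accessory gene Phf1 was at -0.53 and Kdm6a, a demethylase that removes the PRC2 mark, at -0.51, and these were the largest differences of the list.

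Prmt5 (ENSMUSG00000023110, chr14:54507187-54517525, minus strand) was nearly equal over all cells, at 44.7 CPM in WT (6170 UMIs) and 43.4 CPM in KO (6879 UMIs). The log2 ratio was -0.04 with an interval of -0.09 to 0.01. Granule cells, which had the highest Prmt5 in both libraries, were lower in KO. In granule S phase cells it was at 60.8 and 44.1 CPM, a ratio of -0.46 with an interval of -0.58 to -0.35, and in granule G2/M phase cells at 58.6 and 49.7 CPM, a ratio of -0.24.

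Lymphoid-marker cells were also lower in KO, with a ratio of -0.36 and an interval of -0.65 to -0.08, and the other 6 groups had intervals that included 0. Granule cells were more frequent in KO, and the equal-mix ratio of Prmt5 was -0.14. All 15 genes of the methylosome and related methyltransferases were at the floor, with a median of 0.02. Coprs, which encodes a histone-binding partner of PRMT5, was higher with 0.81, and 0.35 with the equal mix. Wdr77, the obligate partner, was at -0.03 and Prmt2 at -0.40. With the equal mix Wdr77 was at -0.13, and Prmt2 was at 0.10 and higher in 6 of 9 groups.

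Sirt1 (ENSMUSG00000020063, chr10:63319005-63381704, minus strand) was at 11.8 CPM in WT (1632 UMIs) and 11.7 CPM in KO (1846 UMIs), a log2 ratio of -0.02 with an interval of -0.12 to 0.08. A UMI was seen in 8.95% of WT and 8.89% of KO cells after thinning, and in 23.8% and 25.9% without it. In none of the 9 groups did the interval exclude 0. The widest ratio was in HSC-marker cells, at 12.3 CPM in WT against 7.64 CPM in KO from 12 UMIs, with an interval of -1.70 to 0.18. Among basophil/mast-marker cells, those led by Mcpt8 and Prss34 held 22 UMIs in WT and 44 in KO, a ratio of 0.83 with an interval of 0.06 to 1.64.

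All neighbouring groups in the order of Sirt1 levels overlapped in their intervals in both libraries. Of 15 sirtuins and partners 14 were at the floor and none was past 1.5-fold. Their median was -0.21. The largest differences were those of Nmnat1, an enzyme of NAD synthesis, with -0.44 and the mitochondrial sirtuin gene Sirt3 with -0.36. With the equal mix Nmnat1 was at -0.50, while Sirt3 was at 0.01 and higher in 5 of 9 groups.

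**Figure D4:**
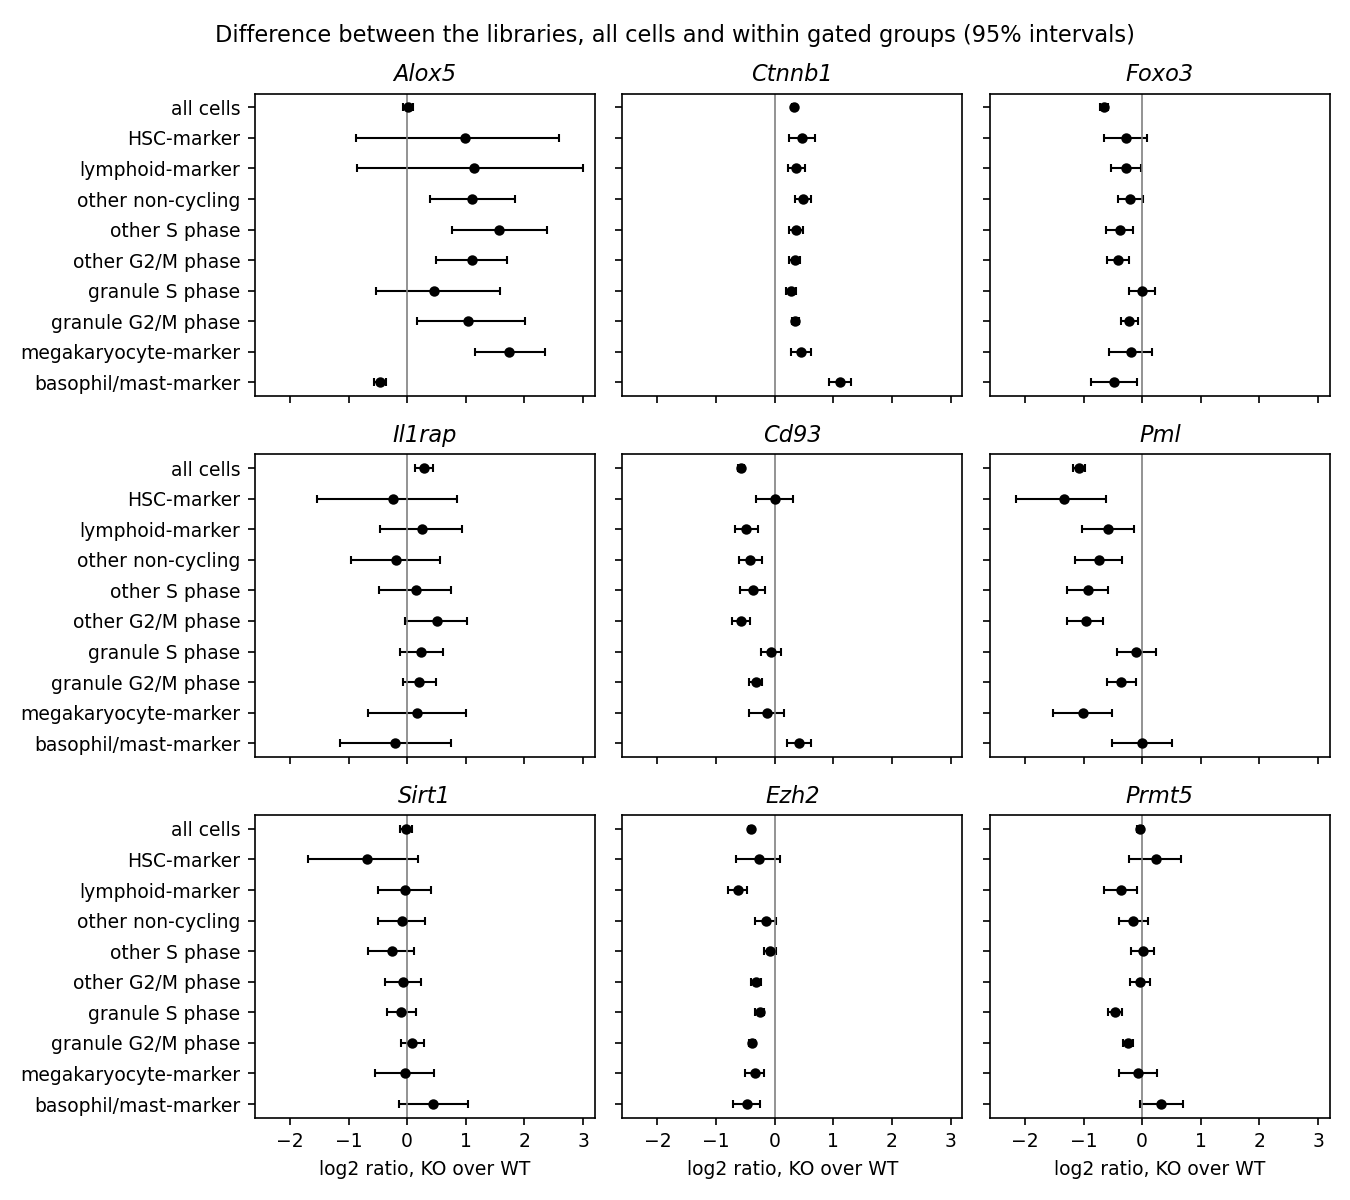
Log2 ratio of KO over WT with 95% counting intervals for each of the 9 genes, over all cells and within the 9 gated groups with at least 50 cells in both libraries. Ctnnb1 lies to the right of 0 in every row, Pml to the left with overlap of 0 in granule S phase and basophil/mast-marker cells, and Alox5 to the right except in basophil/mast-marker cells.

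Over the 9 partner lists together 127 genes were at the floor. Of these 6 were past 1.5-fold higher in KO (4.72%) and 9 were past it lower (7.09%), beside 3.46% and 9.85% of all genes, so the shares were near the background. With the equal mix the counts were 1 and 3.

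**Figure D5:**
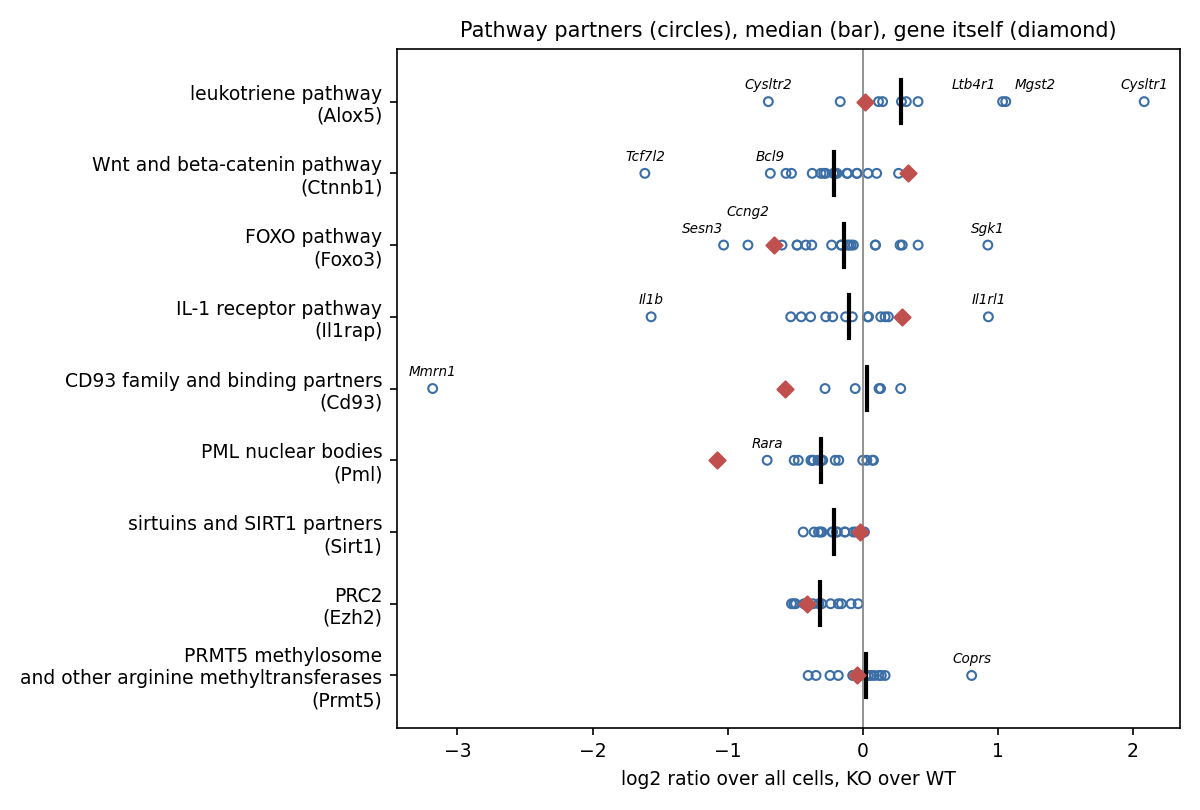
Log2 ratio of KO over WT over all cells for the partner genes at 2 CPM or more (circles, with names of most of those past 1.5-fold), the median of each list (bar) and the member itself (diamond). The bar of the leukotriene list lies right of 0 at 0.29, and all circles of the PRC2 list lie left of 0.

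The pattern of a member over groups was compared with that of 7483 genes of at least 10 CPM, by Pearson correlation of log2(CPM + 1) over 20 sums of a group in a library. These sums share 2 libraries and are no independent points, so the values are descriptions. Closest to Foxo3 were Zfp608, Gm19590 and Gcnt2 (0.98 each). Closest to Ezh2 were Cbx5, Brca2 and Lmnb1 (0.98 each), genes of chromatin, DNA repair and the nuclear lamina. Closest to Alox5 were Lmna, Ecm1 and Lilr4b (0.95 each), and to Prmt5 were Coq4 (0.96), Ddx56 and Fastkd2 (0.95 each). The nearest to Cd93 was Nfatc1 (0.95), followed by Arhgap18 (0.92) and Arhgap25 (0.91), and the nearest to Pml were Ilvbl (0.92), mt-Cytb and Tmem181a (0.91 each). Ctnnb1 was nearest to Crk (0.89), Per1 and Lats1 (0.88 each). Sirt1 with Odr4 (0.72), Rmi1 and Tbccd1 (0.70 and 0.69) and Il1rap with Usp46 (0.67), Btg3 and Phf10 (0.62 each) had no close match. Among the members themselves the highest pair was Foxo3 and Pml (0.75), followed by Cd93 and Pml (0.66).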

How the data were processed

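The 2 LSK libraries, 1 per genotype, were analysed. Per the labels the authors made 10x Genomics 3′ libraries and used Cell Ranger 6.1.2 with the mm10 build, while the file headers name another Cell Ranger release, and whether introns were counted is not given in the sources used here. The deposited values are raw UMI counts per gene and barcode, unfiltered for cells. The members and gene lists were chosen with earlier results of these data known, and the gate thresholds were set after the marker scores had been seen.

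Counts of kept barcodes were summed per library and gated group and given as CPM with exact Poisson intervals. Log2 ratios carry exact conditional binomial intervals, and shares of cells exact Clopper-Pearson intervals (scipy 1.17.1, numpy 2.4.6). Calls at 1.5-fold used genes of at least 2 CPM and a pseudocount of 0.1 CPM. The equal-mix ratio weighted each group by its mean share of cells over both libraries. Named partners were those past 1.5-fold, or else the 2 with the largest ratio, and other partners named were chosen after their values were seen. A gate asked for a set number of marker UMIs per 10000 UMIs of the cell, between 3 and 100 by gate. The first gate in the order given took a cell. Doublets were kept, because the automatic threshold of Scrublet (scanpy 1.11.5) marked 1 WT and 0 KO cells and so had not worked. The top-scoring 230 WT (4.29%) and 238 KO cells (4.36%) were left out as an alternative. Both reduced HSC gates were chosen after the data were seen, and a few genes of the lists are not reported here by name. The count functions were tested on simulated data.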

Additional observations from a re-analysis of the deposited data

Results flagged for a closer look

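Alox5 was flagged because its difference between the libraries pointed in opposite directions in separate cell groups, each with an interval beyond 0. It was higher in KO in megakaryocyte-marker cells (log2 ratio 1.74) and lower in KO in basophil/mast-marker cells (-0.47), so that the 2 ratios stood 2.21 apart. Cd93 was flagged for the same reason, with 0.41 in basophil/mast-marker cells and -0.58 in other G2/M phase cells, 0.99 apart. With 1 library per group neither difference was tested.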

How the results depend on the processing

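No paired analysis was possible because each genotype had 1 library, and for the same reason no replicate could be left out. Log2 ratios below are KO over WT over all cells. Scaled by the median of ratios they were 0.13 for Alox5, 0.45 for Ctnnb1, -0.54 for Foxo3, -0.46 for Cd93, -0.96 for Pml, 0.095 for Sirt1, -0.30 for Ezh2 and 0.074 for Prmt5. With the equal mix of groups they were -0.25 for Alox5, 0.42 for Ctnnb1, -0.27 for Foxo3, -0.30 for Cd93, -0.77 for Pml, -0.30 for Ezh2 and -0.14 for Prmt5. As the mean of per-cell CPM they were 0.38 for Alox5, -0.51 for Cd93, -0.37 for Ezh2 and 0.016 for Prmt5. Alox5 was at 0.13 with a cutoff of 4000 UMIs, -0.26 with 16000 and 0.11 with a mitochondrial share under 5%, and Ezh2 at -0.45 with 16000. Without basophil/mast-marker, innate lymphoid-marker and antibody-secreting cells, left out after the data were seen, Alox5 was at 0.69, Ctnnb1 at 0.28 and Cd93 at -0.66. Alox5, Sirt1 and Prmt5, whose intervals included 0, thus changed sign with such settings, and the cause was not tested. Of 72 such values 46 moved by no more than their counting interval. Within groups 173 of 198 values did so, and the ratio of Cd93 in basophil/mast-marker cells was reversed, at -0.47, in those led by Mcpt8 and Prss34.

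Shares of cells with a UMI, KO minus WT in percentage points, were 4.60 for Alox5, 8.58 for Ctnnb1, -10.2 for Foxo3, 3.57 for Il1rap, -12.5 for Pml, 2.02 for Sirt1, 0.61 for Ezh2 (reversed) and 6.01 for Prmt5 without thinning. Thinned to 4000 UMIs they were 1.90 for Alox5, -4.65 for Foxo3, -4.37 for Cd93 and -4.33 for Pml.

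All genes past the fold, higher and lower, numbered 843 and 2758 with no floor, 207 and 360 with a floor of 10 CPM, 885 and 2745 at a looser fold limit, and 143 and 356 at a fold of 2. Of the members 1 was higher and 4 lower at that looser limit, 1 was lower at a fold of 2, and 1 was lower by the median of ratios. Partner genes higher numbered 1 with the equal mix, and those lower 5 by the median of ratios, 3 with the equal mix and 2 with a floor of 10 CPM. The median of the FOXO list was 0.044 with the equal mix, and that of the IL-1 receptor list 0.0097 with the equal mix and 0.014 by the median of ratios. Of 81 pairs of member and group, 15 were higher and 27 lower with the interval beyond 0. These counts were 16 and 32 with stricter gates, and 15 and 26 without the top-scoring doublets. The share of such pairs over all genes is not given, so the counts are not read as particular to the members. Over all cells 26.2% of all genes were higher and 55.4% lower by the interval. The nearest genes changed for 8 of 9 members with a floor of 50 CPM. A 6-base match was in 6 members for the 5p strand (40.5% of genes) and in Cd93 for the 3p strand (19.7%).

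With 1 library per genotype the differences between libraries cannot be told apart from differences between genotypes. HSC-marker cells of KO gave 17 UMIs of Pml and 8 of Il1rap, which limits those values.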
